A study of Mus musculus with 2 samples.

Results

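The genes described here are 36 immediate-early, heat shock and stress genes, followed across the cells of injured mouse spinal cord. They were chosen by symbol from a list of well-known members, and all 36 were found among the 31053 genes of the deposited matrices. The list was drawn up with earlier results of these data in view, but no measured value entered the rule. The study compared spinal cord treated with an HDAC3 inhibitor with cord treated with vehicle, both taken 5 days after injury, by single-cell RNA sequencing with the 10x Genomics 3′ version 3 kit. HDAC3 is a histone deacetylase that works in the nuclear receptor corepressor complexes. There was 1 library per treatment. The labels give tissue, treatment and day, and the compound, its dose, the strain, age and sex, and how many mice stand behind a library are not stated in the labels.

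Immediate-early genes are transcribed within minutes of a stimulus without new protein synthesis, many from promoters that serum response factor and CREB hold ready. Many encode transcription factors such as the FOS and JUN subunits of AP-1. Heat shock genes are driven by HSF1 when misfolded proteins accumulate, and the integrated stress response acts through ATF4 and its target CHOP, encoded by Ddit3. In nervous tissue these genes mark active neurons, injured glia and activated microglia, and the preparation of a cell suspension is itself known to induce them. The labels describe the suspension only as viable and free of debris, no library of undissociated cord was analysed here, and the part of dissociation in the levels below was not tested.

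After filtering, 2954 of 3423 barcodes of the HDAC3 inhibitor library and 2164 of 2523 of the vehicle library were kept, with medians of 9701.5 and 10245 unique molecular identifiers (UMIs, each a counted RNA molecule) per cell. Only 4 barcode sequences occurred among the kept cells of both libraries. Cells were clustered without the 36 genes, and 22 of 26 clusters took the name of a cell class from known markers, leaving 8.06% and 6.10% of cells unnamed. In every class all fixed markers of that class were detected in both libraries. Levels are described for the 12 classes that held 20 cells or more on each side, as the count of a gene's UMIs scaled to 1000000 UMIs of the class (CPM). Wherever a pair of values is given, the HDAC3 inhibitor library comes first and the vehicle library second, and ratios are HDAC3 inhibitor over vehicle. With 1 library per treatment no test was possible, so libraries and not treatments are compared, and all 95% intervals cover counting error only.

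The 36 genes together took 0.40% to 3.84% of all UMIs of a class. Mural-like cells, the pericytes and smooth muscle cells of vessels, held the largest shares, 3.84% (3.80 to 3.88) and 3.24% (3.19 to 3.28). Schwann-like cells, the glia of nerve roots, held 2.26% (2.22 to 2.29) and 3.11% (3.07 to 3.15), and endothelial-like cells 2.39% (2.38 to 2.41) and 2.38% (2.37 to 2.40). Fibroblast-like cells followed with 1.84% and 1.49%, microglia-like cells with 1.60% and 1.68% and border-associated macrophage-like cells with 1.32% and 1.52%. Ependymal-like cells, the ciliated lining of the cord's canal, held 1.06% and 1.12%. The other classes were all under 1%, with 0.759% and 0.660% in neutrophil-like, 0.730% and 0.721% in monocyte/macrophage-like, 0.633% and 0.638% in B-like, 0.579% and 0.565% in oligodendrocyte-like and 0.424% and 0.40% in oligodendrocyte progenitor-like cells. The vessel, nerve root and resident myeloid cells thus stood above the infiltrating leukocytes and the oligodendrocyte lineage in both libraries. Depth also differed between classes. Monocyte/macrophage-like cells were the deepest with medians of 23096 and 25612 UMIs per cell, and Schwann-like cells were among the shallowest with 2858 and 3269. The part of depth in this order was not tested.

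**Figure D1:**
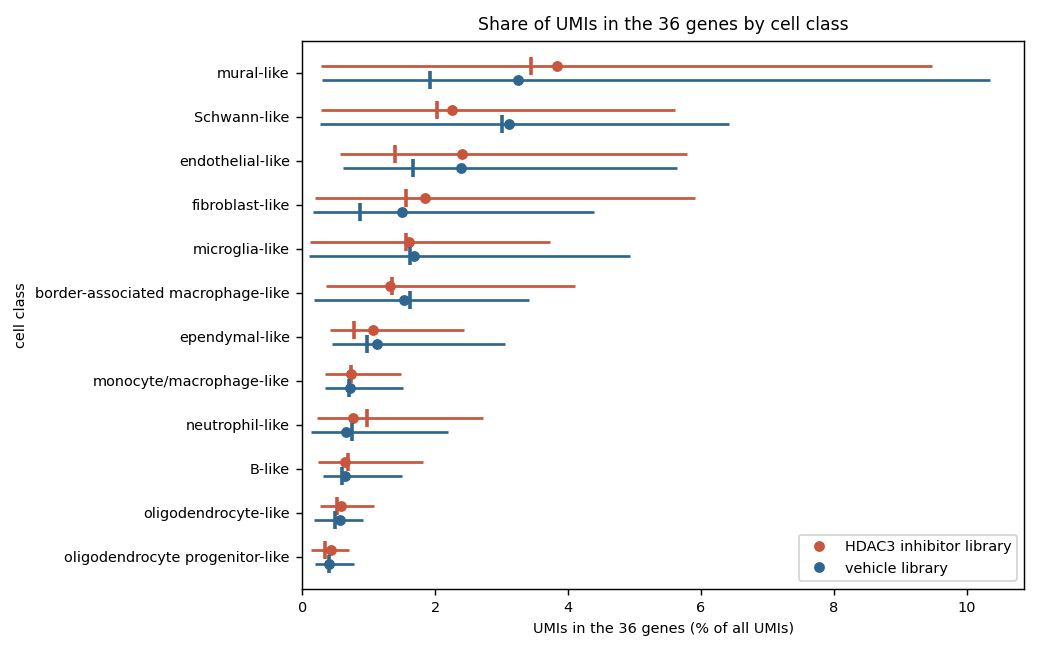
Share of UMIs in the 36 genes, in percent of all UMIs, for the 12 cell classes in the HDAC3 inhibitor library (red) and the vehicle library (blue). Points are the share over all UMIs of a class, ticks the median cell and lines the 5th to the 95th percentile of cells. Mural-like, Schwann-like and endothelial-like cells lie above 2% in both libraries, and the oligodendrocyte classes below 1%.

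Cells of a class differed widely. In mural-like cells the share ran from 0.281% at the 5th percentile to 9.47% at the 95th in the HDAC3 inhibitor library and from 0.298% to 10.4% in the vehicle library, with medians of 3.45% and 1.92%. The median Schwann-like cell held 2.03% and 3.01%. In oligodendrocyte-like cells the 95th percentile was only 1.08% and 0.916%, below the median cell of the microglia-like class at 1.56% and 1.62%. The plot of shares by class shows these spreads.

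Classes differed in the gene with the most UMIs, counted at the 3′ end without regard to length. Fos took 23.1% and 24.0% of the UMIs of the 36 genes in Schwann-like cells, and Cebpb 27.3% and 25.3% in neutrophil-like cells. Hsp90aa1 took 41.7% and 42.0% in ependymal-like cells and 26.2% and 27.3% in oligodendrocyte-like cells. Klf2 led in endothelial-like cells with 11.0% and 10.2%, and Junb in microglia-like cells with 15% and 15.9%.

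The order of the 12 classes was much the same in both libraries. Spearman's rho between the libraries over the 12 classes ranged from 0.655 to 0.993 among the 36 genes with a median of 0.916, and it was above 0.8 for 34. The classes are the same tissue processed alike, so this describes the libraries only. The highest class was the same in both libraries for 27 of the 36 genes. It was Schwann-like for 6 (Fos, Fosb, Egr2, Nr4a1, Atf4, Ddit3), mural-like for 6 (Zfp36, Btg2, Hspa1a, Hspa1b, Dnajb1, Hspb1), endothelial-like for 5 (Dusp1, Ier3, Nfkbia, Klf2, Klf4) and microglia-like for 3 (Atf3, Maff, Gadd45b). Ependymal-like cells were highest for Hsp90aa1 and Gadd45g, fibroblast-like cells for Errfi1 and Cebpd, oligodendrocyte-like cells for Sgk1, neutrophil-like cells for Gadd45a and B-like cells for Myc.

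A gene was called class-bound where the same class was highest in both libraries and at least 3 times the next class, and shared where the lowest class held at least 0.25 of the highest. Of the 36 genes, 2 were class-bound, 0 were shared, 32 lay between and 2 (Egr3 and Myc) were not called, since their highest class in the HDAC3 inhibitor library, B-like, held under 50 UMIs of them over both libraries. These calls were not made over all genes, so whether the counts are unusual for a gene list cannot be told. The class-bound genes were Egr2 in Schwann-like cells and Gadd45a in neutrophil-like cells. Closest to shared was Atf4, with the lowest class at 0.169 and 0.109 of the highest, followed by Ddit3 at 0.106 and 0.117, Klf6 at 0.132 and 0.0752 and Jund at 0.0741 and 0.0837. By a looser count, 10 and 8 of the 12 classes lay within 4-fold of the highest for Atf4, 10 and 7 for Ddit3, 9 and 9 for Btg2 and 9 and 7 for Junb. For Hspa1a this count was 1 and 2, and for Hspb1 it was 2 and 2.

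**Figure D2:**
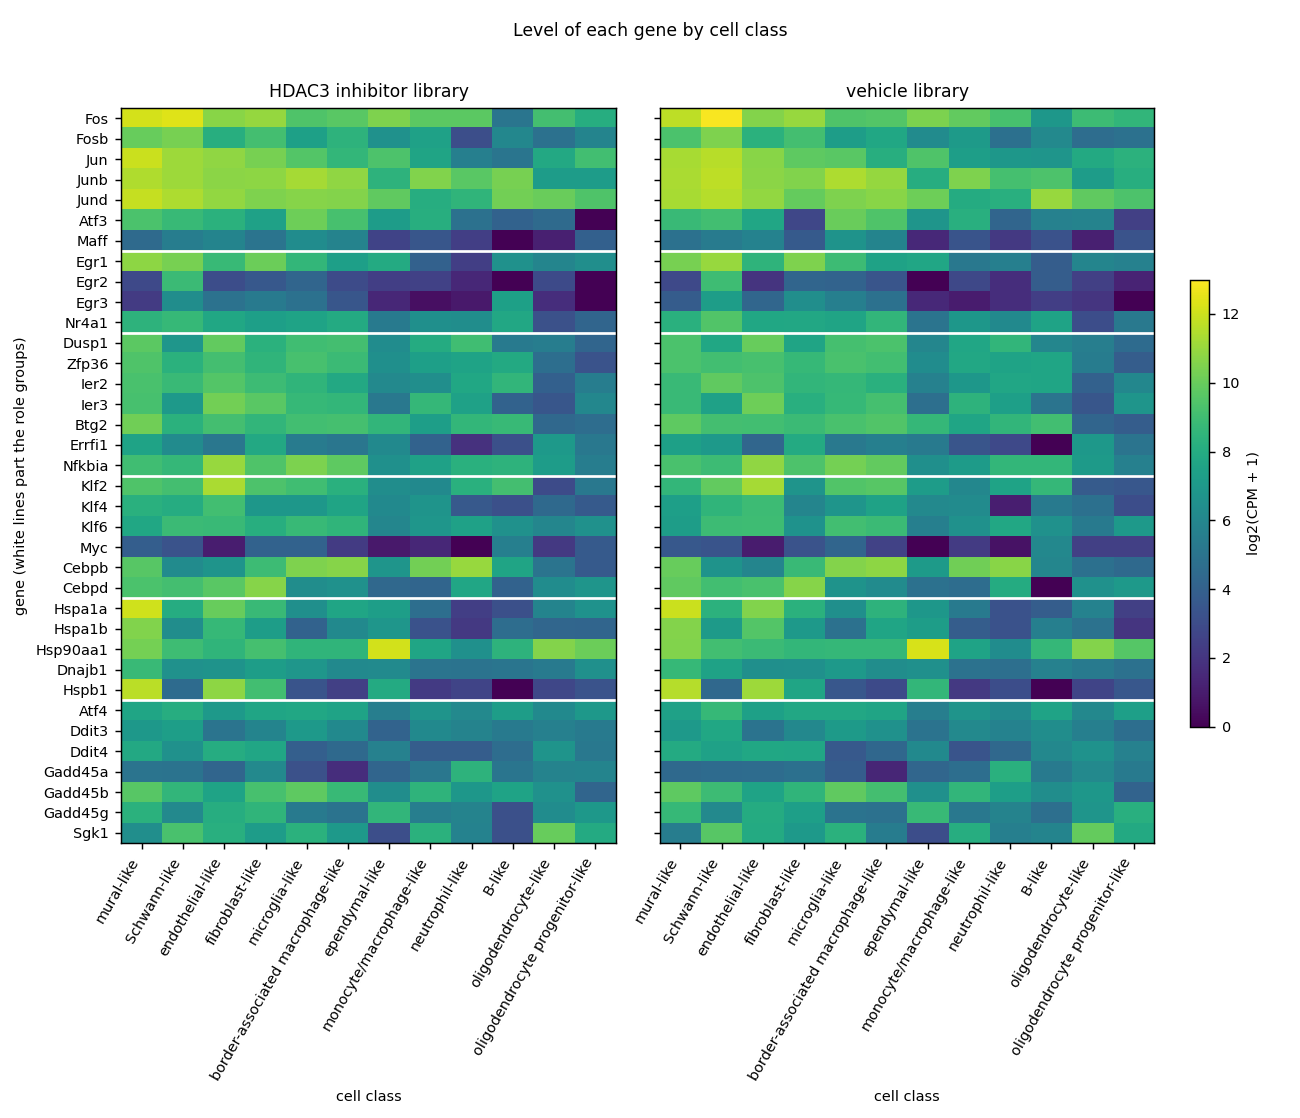
Level of each of the 36 genes (rows, grouped by role) in the 12 cell classes (columns, ordered by the share of UMIs in the 36 genes) of the HDAC3 inhibitor library (left) and the vehicle library (right), as log2(CPM + 1). Egr2 is bright in Schwann-like cells alone, Hsp90aa1 brightest in ependymal-like cells, and the rows of Atf4 and Ddit3 are among the most even.

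The first group were AP-1 and related basic leucine zipper factors. Fos, which encodes the prototype AP-1 subunit (chromosome 12, 85473890 to 85477273, mm10), stood at 5208 CPM (95% interval 5018 to 5404) and 7478 CPM (7284 to 7676) in Schwann-like cells. Mural-like cells held 4561 CPM (95% interval 4413 to 4712) and 3374 CPM (3232 to 3519), fibroblast-like cells 1959 and 2013 CPM and endothelial-like cells 1670.5 and 1514 CPM. Microglia-like cells, at 695 and 686 CPM, lay below monocyte/macrophage-like cells, at 832 and 946 CPM, in both libraries. The lowest class was B-like, with 31.7 and 118 CPM. Fosb, a sister gene of Fos, followed the same top order, with 1278 and 1417 CPM in Schwann-like and 995 and 647 CPM in mural-like cells, and was at 27.7 and 24.1 CPM in oligodendrocyte-like cells.

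Jun, the main partner of FOS, was highest in mural-like cells of the HDAC3 inhibitor library and in Schwann-like cells of the vehicle library. Its levels were 3934 and 2529 CPM in mural-like and 2191 and 3065 CPM in Schwann-like cells. Junb reached 2165 and 3376 CPM in Schwann-like, 2802 and 2637 CPM in mural-like and 2406 and 2665 CPM in microglia-like cells, and only 142 and 144 CPM in oligodendrocyte-like cells. Jund, a more constantly expressed JUN gene, was present at 1039 and 892 CPM even in oligodendrocyte-like cells, and its lowest class in both libraries was monocyte/macrophage-like, with 272 and 253 CPM. Atf3, an injury-induced factor, was highest in microglia-like cells, with 1106 CPM (95% interval 1078 to 1135) and 1036 CPM (1012 to 1061). Border-associated macrophage-like cells held 595 and 675 CPM, mural-like cells 639 and 443 CPM and Schwann-like cells 425 and 540 CPM. Maff, a small MAF factor, was also highest in microglia-like cells, at 78.0 and 99.9 CPM.

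The promoter of Fos is shown because Fos took the largest part of the UMIs of the 36 genes in Schwann-like cells, and that of Egr2 because Egr2 was bound to them. Both sequences are RefSeq promoter windows on GRCm38.p6, from 250 bases before to 50 bases after the annotated start, read along the gene's strand. RefSeq promoter windows were matched for 30 of the 36 genes, and not for Egr1, Egr3, Ier2, Myc, Cebpd and Hsp90aa1. Fos lies at chr12:85473640-85473939 on the plus strand, and the Egr2 window, the third of its 5 annotated starts, at chr10:67537619-67537918 on the plus strand. Capitals mark the core of the cAMP response element, TGACG or its reverse complement CGTCA, the TATA box TATAAA in the Fos window, and the CArG box, the site type bound by serum response factor, in Egr2.
Fos: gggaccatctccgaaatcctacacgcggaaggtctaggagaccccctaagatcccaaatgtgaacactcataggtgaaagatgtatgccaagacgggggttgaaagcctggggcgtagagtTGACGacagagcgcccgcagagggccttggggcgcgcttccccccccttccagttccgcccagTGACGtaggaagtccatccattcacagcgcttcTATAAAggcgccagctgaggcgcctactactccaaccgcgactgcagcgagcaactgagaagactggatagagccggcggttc
Egr2: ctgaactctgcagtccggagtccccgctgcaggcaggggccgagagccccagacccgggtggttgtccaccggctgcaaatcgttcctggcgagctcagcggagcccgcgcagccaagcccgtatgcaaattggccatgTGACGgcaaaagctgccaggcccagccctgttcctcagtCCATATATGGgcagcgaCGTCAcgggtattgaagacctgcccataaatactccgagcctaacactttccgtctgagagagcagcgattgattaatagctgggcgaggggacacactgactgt
The Fos window held TGACG with its first base at -129 and -66 from the start, and TATAAA at -33. The Egr2 window shown held a CArG box at -72 and cAMP response element cores at -111 and -55. Of these motifs, the windows of the earlier Egr2 starts held only a different CArG box, in the second. Over both strands, the core occurred in 20 of 43 promoter windows of the 36 genes (46.5%), from 17 genes, and in 20.8% of all 32851 windows. The 46.5% counts the same Egr2 cores more than once, in overlapping windows. The full element TGACGTCA, which contains the core, occurred in the windows of Maff, Dusp1, Btg2 and Errfi1 (9.30% of the windows of these genes against 1.79% of all). CArG boxes were found in windows of Egr2 and Zfp36, 2 of the 30 genes. Their share of windows (11.6% against 1.63%) counts 1 Egr2 box more than once, since windows of neighbouring Egr2 starts overlap. The AP-1 motif TGANTCA was found in the window of Ddit3 (2.33% against 7.81%). The TATA box occurred in 20.9% of the windows of these genes against 13.6% of all. For the CCAAT box, CCAAT or its reverse complement, the shares were 48.8% and 37.4%, the former also counting 1 Egr2 box more than once. Heat shock elements are given further below. A match is a run of letters and not a measured binding site.

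Among the EGR and NR4A factors, Egr2 stood apart. It encodes Krox20, which is required for peripheral myelination. Egr2 was at 460.2 CPM (95% interval 405 to 521) and 502 CPM (452 to 555) in Schwann-like cells, 25.4 and 28.3 times the next class. Every other class held between 0 and 18.1 CPM in both libraries, so Egr2 was close to silent outside Schwann-like cells. Its relative Egr1, the best-known member of the family, was broad, with 1278 and 2004 CPM in Schwann-like, 1784 and 1268 CPM in mural-like and 1084 and 1419 CPM in fibroblast-like cells. Microglia-like cells held 396 and 479.6 CPM of Egr1 and monocyte/macrophage-like cells only 15.4 and 35.6 CPM. Egr3 was low, with 81.0 and 148 CPM in Schwann-like cells. Nr4a1, the orphan nuclear receptor Nur77, was highest in Schwann-like cells at 414 and 703 CPM and lowest in oligodendrocyte-like cells at 8.48 and 7.44 CPM.

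Among the feedback regulators, endothelial-like cells were the highest class for Dusp1, Ier3 and Nfkbia, and no other gene of the group was highest there in both libraries. Dusp1, a phosphatase that shuts off MAP kinases, was highest in endothelial-like cells with 945 CPM (95% interval 914 to 976) and 1017 CPM (982 to 1053). Ier3, a small survival-related protein, stood at 1212 and 1119 CPM there and at 10.3 and 10.1 CPM in oligodendrocyte-like cells. Nfkbia, the inhibitor of NF-kappaB that NF-kappaB itself induces, stood at 2063 and 1829 CPM in endothelial-like and 1374 and 1228 CPM in microglia-like cells. Zfp36, which destabilises AU-rich mRNAs, hardly differed among the top classes, with 673 and 636 CPM in mural-like, 585 and 625 CPM in microglia-like and 547 and 599 CPM in endothelial-like cells. Btg2, an antiproliferative gene, was highest in mural-like cells with 1155 and 874 CPM. Ier2 was led by endothelial-like cells (737 and 671 CPM) in the HDAC3 inhibitor library and by Schwann-like cells (446 and 892 CPM) in the vehicle library. Errfi1, an inhibitor of the EGF receptor, was led by fibroblast-like cells at 230.3 and 242 CPM, and oligodendrocyte-like cells, low in most of these genes, held 125 and 119 CPM.

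Of the KLF and other induced factors, Klf2, which shear stress induces in endothelium, stood at 2641 CPM (95% interval 2590.3 to 2693) and 2442 CPM (2387 to 2498) in endothelial-like cells. The next class held 689.8 CPM (mural-like) in the HDAC3 inhibitor library and 938 CPM (Schwann-like) in the vehicle library, 3.83 and 2.60 times lower. Klf4 was also highest in endothelial-like cells, at 529 and 481 CPM. Klf6 was flat over its top classes, with 464 and 488 CPM in Schwann-like, 453 and 497 CPM in endothelial-like and 433 and 538 CPM in microglia-like cells. Cebpb, a factor of myeloid differentiation and inflammation, was highest in myeloid classes, with 2072 and 1672 CPM in neutrophil-like, 1569 and 1793 CPM in border-associated macrophage-like, 1433 and 1513 CPM in microglia-like and 1193 and 1174 CPM among monocyte/macrophage-like cells. In each library Cebpb lay within 4-fold of its highest level in 5 of the 12 classes, more than the myeloid classes named. Its relative Cebpd was instead highest in fibroblast-like cells at 1596 and 1578 CPM, with 809.8 and 619 CPM in endothelial-like cells and only 18 and 24.0 CPM among monocyte/macrophage-like cells. Myc was low everywhere, at most 47.5 and 65.4 CPM in B-like cells, which rests on 6 and 15 UMIs.

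Among the heat shock genes, Hspa1a, Hspa1b, Hspb1 and Dnajb1 were highest in mural-like cells, and Hsp90aa1 in ependymal-like cells. Hspa1a and Hspa1b encode the inducible HSP70 and are neighbours on chromosome 17 (34969190 to 34972156 and 34956436 to 34959238, mm10). Hspa1a stood at 4211 CPM (95% interval 4069 to 4357) and 3932 CPM (3779.9 to 4089) in mural-like cells and at 1012 and 1504 CPM in endothelial-like cells. Microglia-like cells held 88.8 and 87.5 CPM and neutrophil-like cells 4.37 and 8.58 CPM. Hspa1b ran in parallel, with 1469.8 and 1527 CPM in mural-like, 415 and 726 CPM in endothelial-like and 16.0 and 28.1 CPM in microglia-like cells. The copies are hard to tell apart in part of their length: 49.1% of the 91-base windows of the longest Hspa1a transcript occur in the longest Hspa1b transcript, but 0% of those in the last 500 bases, the end that a 3′ library reads. The labels do not say how reads matching both were handled, so their separate levels are uncertain.

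Hspb1, the small heat shock protein HSP27, had the same top classes, at 3251 and 2965 CPM in mural-like and 1779 and 2161 CPM in endothelial-like cells. It was nearly absent from microglia-like cells, at 9.24 and 10.6 CPM, and from monocyte/macrophage-like cells, at 3.55 and 3.42 CPM. Dnajb1, the HSP40 partner of HSP70, was at 448 and 421 CPM in mural-like cells, 2.97 and 2.39 times the next class. That class was fibroblast-like in the HDAC3 inhibitor library and Schwann-like in the vehicle library. Endothelial-like cells held 103 and 87.8 CPM of Dnajb1, less than microglia-like cells with 111 and 129 CPM. Hsp90aa1, the inducible HSP90, was instead highest in ependymal-like cells, with 4426 CPM (95% interval 4305 to 4549) and 4722 CPM (4541 to 4909). Oligodendrocyte-like cells held 1517 and 1542 CPM of it and mural-like cells 1245 and 1468 CPM. Oligodendrocyte-like cells, low in Fosb and Junb, were thus the next class after ependymal-like cells for Hsp90aa1.

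The promoters of Hspa1a, Hspa1b and Hspb1 are shown because they hold a short form, of 2 inverted units, of the heat shock element. This element is the site type bound by HSF1. Capitals mark GAANNTTC or TTCNNGAA. The windows lie at chr17:34972107-34972406 and chr17:34959189-34959488 on the minus strand and chr5:135887669-135887968 on the plus strand of GRCm38.p6, from RefSeq.
Hspa1a: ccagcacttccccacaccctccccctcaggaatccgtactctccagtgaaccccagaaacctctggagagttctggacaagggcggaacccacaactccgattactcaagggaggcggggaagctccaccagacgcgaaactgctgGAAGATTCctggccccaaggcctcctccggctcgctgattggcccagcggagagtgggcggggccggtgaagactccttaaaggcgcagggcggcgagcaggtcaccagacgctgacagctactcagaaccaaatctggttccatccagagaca
Hspa1b: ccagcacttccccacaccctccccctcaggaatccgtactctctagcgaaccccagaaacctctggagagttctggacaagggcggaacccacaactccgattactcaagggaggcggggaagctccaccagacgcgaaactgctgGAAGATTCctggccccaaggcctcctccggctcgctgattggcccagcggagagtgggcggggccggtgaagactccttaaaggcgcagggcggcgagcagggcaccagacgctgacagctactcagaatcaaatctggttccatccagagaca
Hspb1: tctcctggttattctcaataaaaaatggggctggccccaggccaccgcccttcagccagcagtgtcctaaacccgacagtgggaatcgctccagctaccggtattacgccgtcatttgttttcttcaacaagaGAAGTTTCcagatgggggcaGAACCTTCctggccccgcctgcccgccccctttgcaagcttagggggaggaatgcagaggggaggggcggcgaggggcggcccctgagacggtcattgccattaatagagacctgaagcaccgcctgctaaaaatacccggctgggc
The Hspa1a and Hspa1b windows differ at 4 of 300 positions, and both hold GAAGATTC with its first base at -104. The Hspb1 window holds 2 such motifs, at -117 and -97. This short motif is common, found in 16.3% of the windows of the 36 genes and in 15.1% of all windows. It also occurs in windows of Jun, Egr2 and Sgk1. The windows of Dnajb1, a heat shock gene that was also searched, held none. The longer element of 3 units was found in 0 of the 43 windows of the 36 genes, and in 0.603% of all windows.

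The stress and growth arrest genes peaked in different classes. Gadd45a, a growth arrest gene induced by DNA damage (chromosome 6, 67035096 to 67037457), was bound to neutrophil-like cells at 343 CPM (95% interval 310.1 to 379) and 301 CPM (276 to 328), 5.00 and 4.36 times the next class, with 8.29 and 12.7 CPM in microglia-like cells. With classes taken from each cell's own markers it was no longer class-bound. Its relatives peaked in other classes. Gadd45b stood at 883 and 913 CPM in microglia-like and 780.0 and 862 CPM in mural-like cells, and Gadd45g at 379.7 and 439 CPM in ependymal-like and 319 and 413 CPM in mural-like cells. Sgk1, a kinase induced by corticosteroids and known in oligodendrocytes, stood at 1024 CPM (95% interval 996 to 1053) and 974 CPM (941 to 1008) in oligodendrocyte-like cells, 606 and 799 CPM in Schwann-like cells and only 7.77 and 7.38 CPM in ependymal-like cells.

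The integrated stress response genes were flatter. Atf4 ranged over the classes from 46.6 CPM in ependymal-like to 276 CPM in Schwann-like cells in the HDAC3 inhibitor library and from 46.2 to 425 CPM in the vehicle library, with the same lowest and highest classes. Ddit3 was highest in Schwann-like cells, at 155 and 217 CPM, and next in microglia-like cells, at 129 and 134 CPM. Ddit4, an inhibitor of mTOR induced by hypoxia and glucocorticoids, was highest in vessel classes, with 268 and 217 CPM in endothelial-like and 226 and 243 CPM in mural-like cells. It was not confined to them, with 93.9 and 170 CPM in Schwann-like and 104 and 98.5 CPM in oligodendrocyte-like cells. In all, 5 and 7 of the 12 classes lay within 4-fold of the highest. Monocyte/macrophage-like cells held 13.2 and 9.49 CPM.

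Within classes the genes differed between clusters that had been formed without them. Microglia-like cells fell into cluster 1, with Ccl4, Ccl3 and Il1a among its top genes (373 and 386 cells), and cluster 7, with Spp1, Igf1, Cd5l and Apoc1 (87 and 98 cells). Of the 36 genes, 29 were at least 1.5 times higher in cluster 1 in both libraries, beside 26% of all 8416 genes measured, and 1, Gadd45a, was lower, beside 5.74%. The median log2 ratio of cluster 1 over cluster 7 was 1.77 and 1.93 for the 36 genes, and 0.29 and 0.44 for all genes. Egr1 was at 468 and 580.3 CPM in cluster 1 and at 66.1 and 56.5 CPM in cluster 7, and Jund at 1879 and 1690.3 CPM against 304 and 269 CPM. Sgk1 hardly differed, with 326 and 317 CPM against 287 and 299 CPM. Gadd45a was at 6.43 and 7.66 CPM in cluster 1 and 16.8 and 33.8 CPM in cluster 7. Cluster 7 was shallower, with medians of 4855 and 3956.5 UMIs per cell against 10898 and 12644.5 in cluster 1, and the part of depth was not tested.

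Mural-like cells fell into cluster 10, led by the pericyte genes Vtn, Rgs5 and Kcnj8, and cluster 21, led by the smooth muscle genes Acta2, Tagln and Myh11. Here 12 of 31 measured genes were at least 1.5 times higher in cluster 10 in both libraries, beside 19.2% of all genes, and 5 were lower, beside 9.82%. The higher ones included Hspa1a, at 6557 and 5754 CPM against 804 and 1436 CPM, Dnajb1, at 699 and 676 CPM against 84.1 and 70.7 CPM, and Egr1, at 2778 and 1874 CPM against 339.6 and 439 CPM. The lower ones were Ier3, Klf4, Cebpb, Gadd45b and Gadd45g. Gadd45b, for example, stood at 448 and 630.0 CPM in cluster 10 and 1262 and 1179.6 CPM in cluster 21. The HSP70 genes and Dnajb1 were thus higher on the pericyte side and Gadd45b on the smooth muscle side. Cluster 21 was deeper (medians of 8837.5 and 9100 against 4533 and 5488.5 UMIs per cell) with more mitochondrial UMIs (7.42% and 8.51% against 3.79% and 4.44%), and their part was not tested.

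**Figure D3:**
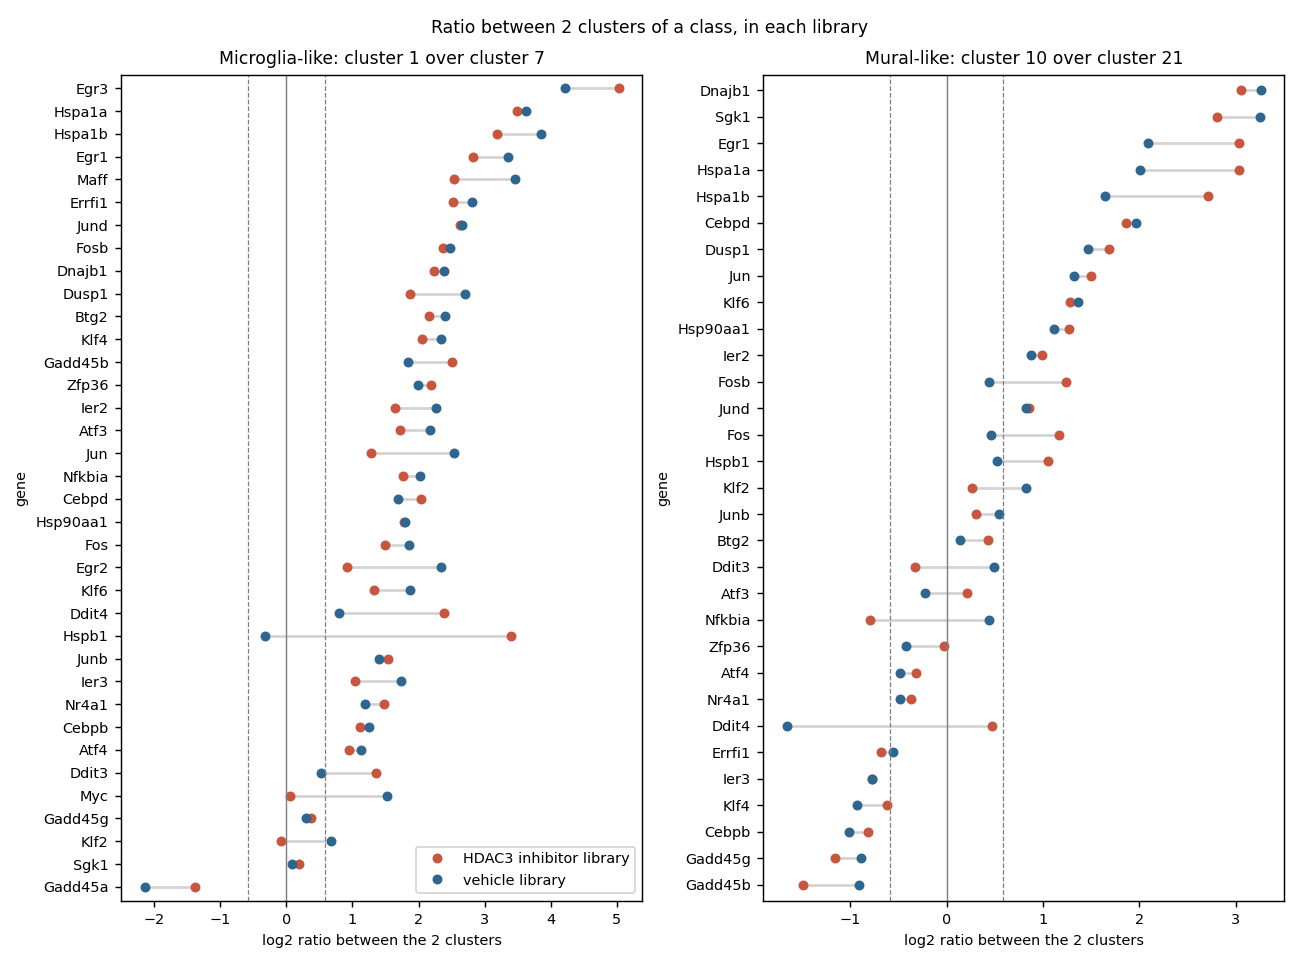
Log2 ratio of each gene between both clusters of microglia-like cells (left, cluster 1 over cluster 7) and of mural-like cells (right, cluster 10 over cluster 21), in the HDAC3 inhibitor library (red) and the vehicle library (blue); dashed lines mark a fold of 1.5. In microglia-like cells 29 of 36 genes lie right of the upper dashed line in both libraries, while mural-like cells show genes on both sides.

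Neutrophil-like cells fell into cluster 6, led by the mature genes Retnlg and Il1b, and cluster 8, led by Ngp and Camp, genes of immature neutrophils. Of 27 measured genes, 16 were at least 1.5 times higher in cluster 6 in both libraries, beside 30.5% of all genes, and Hsp90aa1 was lower, beside 17.8%. Dusp1 stood at 1237 and 1016 CPM in cluster 6 and 118 and 90.1 CPM in cluster 8, Cebpb at 3816 and 3710.0 CPM against 1137 and 791 CPM, and Junb at 1688 and 1177 CPM against 369 and 307 CPM. The class-bound Gadd45a was at similar levels in both clusters, 393 and 336 CPM and 317 and 286 CPM. Cluster 6 was shallower, with medians of 2932 and 4113 UMIs per cell against 10442 and 10665, and the part of depth was not tested.

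Schwann-like cells fell into cluster 4, with Ncmap and Prx among its top genes, and cluster 15, led by Scn7a, a gene of non-myelinating Schwann cells. Of 33 measured genes, 12 were at least 1.5 times higher in cluster 4 in both libraries, beside 15% of all genes, and 3 were lower, beside 14.5%. Egr2 stood at 562 and 608 CPM in cluster 4 and 46.7 and 79.3 CPM in cluster 15, and Sgk1 at 752 and 988 CPM against 9.35 and 46.3 CPM. Cebpd ran the other way, at 392 and 132 CPM against 1253 and 2168 CPM, as did Hspa1a and Hspa1b.

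Of 34 measured genes, 7 were higher in endothelial-like cluster 18, led by Tmem252 and Slc38a5 beside Cldn5, than in cluster 2, beside 3.8% of all genes, among them Cebpb (318 and 151 CPM against 30.2 and 28.5 CPM), and Egr3 was lower, beside 6.83%. Of 35, 13 were higher in monocyte/macrophage-like cluster 0, led by Spp1 and Gpnmb, than in cluster 19, led by Plac8 and Ly6c2, beside 14.5%, and 7 were lower, beside 22.7%. Of 31, 7 were higher in oligodendrocyte-like cluster 3 than in cluster 13, beside 7.35%, including Sgk1 (1354 and 1231 CPM against 353 and 348 CPM), and 2 were lower, beside 10.1%. Other genes ran opposite ways in the libraries between these clusters. Fos was 0.453 and 2.5 times as high in cluster 3 as in cluster 13, Junb 0.580 and 2.79 times, and the median log2 ratio of the 31 genes was -0.03 and 1.02.

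The libraries were compared in the 6 classes that held 100 cells or more per library, for genes with 50 UMIs or more when both libraries are added. This left 196 pairs of gene and class, of which 8 were at least 1.5 times higher in the HDAC3 inhibitor library and 30 at least 1.5 times lower, beside 3.07% and 2.87% of the 41255 pairs over all measured genes. Of the 30 lower pairs, 14 came from Schwann-like cells. Median log2 ratios of the measured genes were -0.49 in Schwann-like, -0.09 in microglia-like, -0.02 in oligodendrocyte-like, 0.05 in monocyte/macrophage-like, 0.06 in neutrophil-like and 0.11 in endothelial-like cells. Over all measured genes the same medians lay between -0.02 and 0.08. The Schwann-like median was the lowest of the 6, and whether it differs from the others beyond the spread between mice could not be tested.

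**Figure D4:**
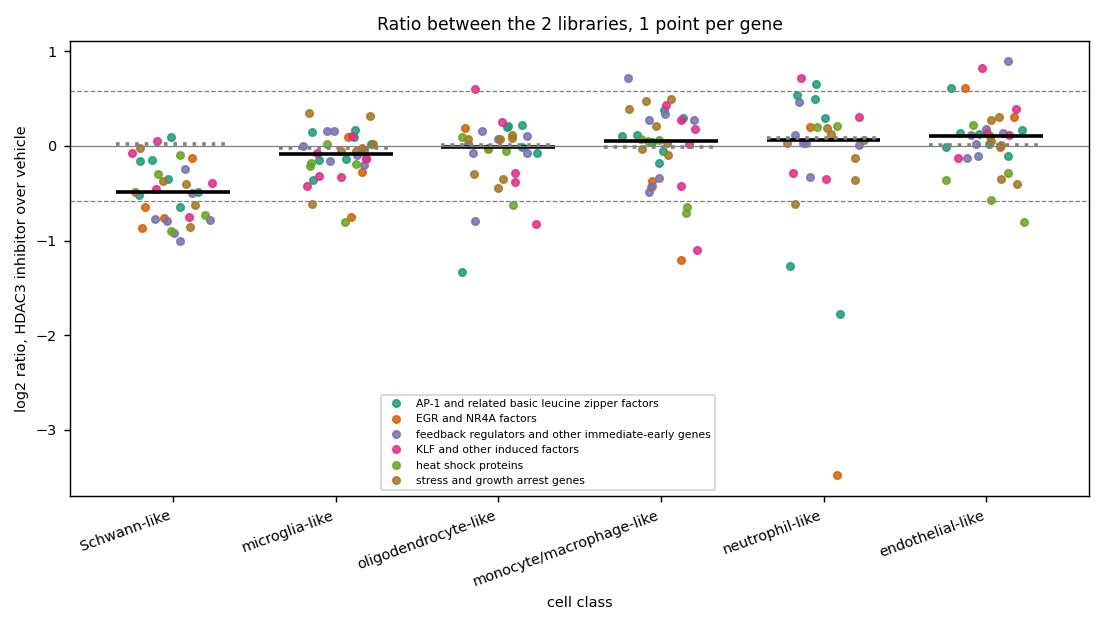
Log2 ratio of the HDAC3 inhibitor library over the vehicle library for each measured gene (points, coloured by role) in 6 cell classes. Black bars are the medians of these genes, dotted grey bars the medians of all measured genes, and dashed lines a fold of 1.5; the median in Schwann-like cells is -0.49 and in the other classes it lies between -0.09 and 0.11.

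In Schwann-like cells (159 and 217 cells) 31 of 33 measured genes had a ratio below 1, beside 47% of all genes. Of the 33, 14 were at least 1.5 times lower, beside 5.19% of all 3716 genes, and 0 were at least 1.5 times higher, beside 4.98%. Ier2 was at 446 and 892 CPM, a ratio of 0.50 (95% interval 0.430 to 0.580). Dusp1 was at 114 and 216 CPM, a ratio of 0.529 (95% interval 0.388 to 0.714). Dnajb1 was at 93.9 and 176 CPM, a ratio of 0.534 (95% interval 0.379 to 0.744). The next were Egr3 (0.548), Ddit4 (0.551) and Zfp36 (0.575), and the remaining 8 (Btg2, Errfi1, Nr4a1, Klf2, Hspa1b, Egr1, Junb, Atf4) had ratios from 0.581 to 0.650. Fos and Jun lay just outside the called fold. Fos had a ratio of 0.696 (95% interval 0.665 to 0.729) and Jun of 0.715 (95% interval 0.666 to 0.767). Jund, Fosb, Egr2, Hsp90aa1 and Klf6 had ratios from 0.895 to 0.950 and did not reach the called fold, Egr2 with 0.917 (95% interval 0.779 to 1.08) among them. Only Cebpd (1.04) and Maff (1.07) were above 1, and both intervals include 1. By role, 5 of 7 feedback regulators, 3 of 4 EGR and NR4A factors, 2 of 4 measured heat shock genes and 1 of 7 AP-1 and related factors were among the 14.

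The 36 genes took a smaller share in the HDAC3 inhibitor library in both Schwann-like clusters, and the gap was wider in the smaller cluster. The 36 genes took 2.49% and 3.09% of UMIs in cluster 4 (128 and 169 cells), and 1.31% and 3.18% in cluster 15 (31 and 48 cells). Junb stood at 2451 and 3261 CPM in cluster 4 and 1000.4 and 3834 CPM in cluster 15, and Klf2 at 681 and 1008 CPM and 56.1 and 661 CPM. In cluster 4 alone the median log2 ratio was -0.41. Zfp36 there was at 332 and 403 CPM, a log2 ratio of -0.28, and Junb had -0.41, both no longer at a fold of 1.5. Depth and mitochondrial share were close in the libraries (medians of 2858 and 3269 UMIs, and of 4.10% and 4.08%). Markers of other cells moved with the libraries: summed over the 6 erythroid markers the level in Schwann-like cells was 27.6 and 969 CPM (2 and 1 markers at 0), over the 11 neutrophil markers 203 and 409.9 CPM (3 and 1 at 0), over the 10 microglia markers 64.4 and 139.7 CPM (5 and 2 at 0), and over the 14 monocyte/macrophage markers 4328 and 2385 CPM (5 and 5 at 0). The 9 Schwann markers summed to 42684 and 52159 CPM. Their part in the lower levels was not tested.

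**Figure D5:**
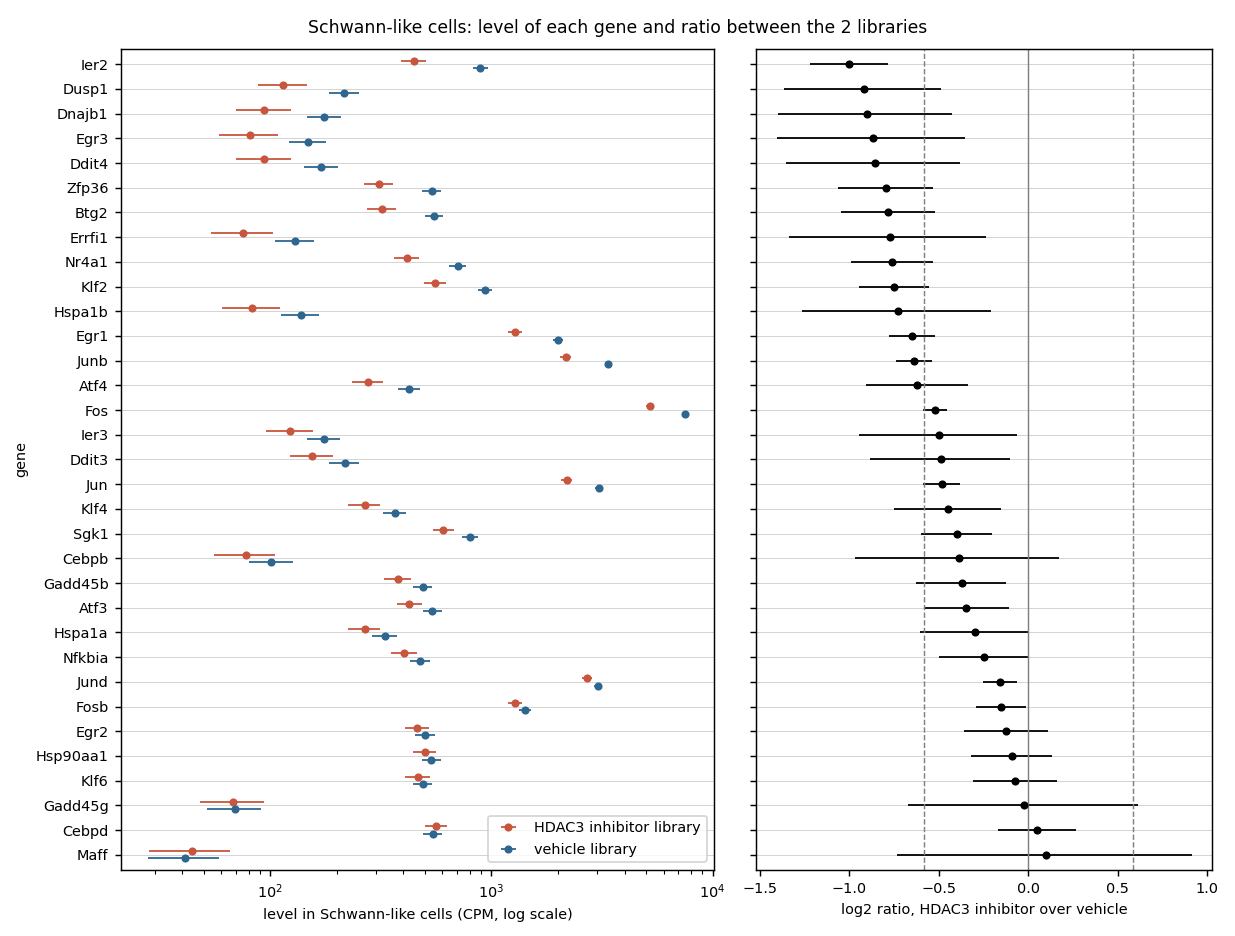
Schwann-like cells: level of each measured gene in CPM on a log scale with its 95% counting interval in the HDAC3 inhibitor library (red) and the vehicle library (blue) (left), and the log2 ratio with its interval (right), sorted by ratio. Of 33 genes 31 lie left of 0 and 14 at or beyond the dashed line of a fold of 1.5, from Ier2 at 0.50 as a linear ratio to Maff at 1.07.

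Endothelial-like cells (355 and 263 cells) had 22 of 34 measured genes with a ratio above 1, beside 51.4% of all genes. At least 1.5 times higher were 4, beside 2.1% of all 8317 genes, and 1 was lower, beside 2.51%. Errfi1 was at 34.9 and 18.8 CPM, a ratio of 1.86 (95% interval 1.35 to 2.57), Cebpb at 105 and 59.0 CPM (ratio 1.77, 95% interval 1.49 to 2.13), Atf3 at 312 and 204 CPM (ratio 1.53, 95% interval 1.38 to 1.68) and Egr3 at 28.6 and 18.8 CPM (ratio 1.52, 95% interval 1.10 to 2.13). The Cebpb difference was seen in the small cluster 18, with 318 and 151 CPM there and 30.2 and 28.5 CPM in cluster 2, and in cluster 2 alone its log2 ratio was 0.09. The lower gene was Hspa1b, at 415 and 726 CPM, a ratio of 0.571 (95% interval 0.535 to 0.609). Hspa1a (0.673), Hsp90aa1 (0.780) and Hspb1 (0.823) had ratios below 1 that did not reach the called fold, and Jun, Fos, Nfkbia and Egr1 had ratios of 1.12, 1.10, 1.13 and 1.24. Within clusters the Hspa1a difference had opposite directions, at 858 and 1640.2 CPM in cluster 2 and 1451 and 1092 CPM in cluster 18. The 10 mural markers summed to 302 and 129 CPM in this class (0 and 1 at 0) and the 6 erythroid markers to 320.3 and 167 CPM (1 and 1 at 0), and their part was not tested.

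In microglia-like cells (460 and 484 cells) all 36 genes were measured, 0 were at least 1.5 times higher, beside 1.95% of 8416 genes, and 3 were lower, beside 2.59%. These were Hspa1b at 16.0 and 28.1 CPM (ratio 0.571, 95% interval 0.436 to 0.742), Egr3 at 28.3 and 47.7 CPM (ratio 0.593, 95% interval 0.485 to 0.722) and Gadd45a at 8.29 and 12.7 CPM (ratio 0.654, 95% interval 0.444 to 0.953). The abundant genes were close to equal, with ratios of 0.903 for Junb, 0.905 for Jun, 1.01 for Fos, 1.07 for Atf3 and 1.13 for Jund. Klf2 did not reach the called fold, at 523 and 699.8 CPM (ratio 0.747, 95% interval 0.712 to 0.783). The 6 erythroid markers summed to 25.4 and 336 CPM in this class (1 and 1 at 0), and their part was not tested.

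In monocyte/macrophage-like cells (551 and 292 cells) 1 of 35 measured genes was at least 1.5 times higher, beside 2.54% of 8898 genes, and 4 were lower, beside 2.93%. Errfi1 was higher, at 16.2 and 9.87 CPM (ratio 1.64, 95% interval 1.26 to 2.16). Egr1 was lower, at 15.4 and 35.6 CPM (ratio 0.434, 95% interval 0.360 to 0.522), as were Myc at 1.77 and 3.80 CPM (ratio 0.467, 95% interval 0.259 to 0.832), Hspa1a at 24.8 and 40.5 CPM (ratio 0.614, 95% interval 0.524 to 0.718) and Hspa1b at 8.57 and 13.4 CPM (ratio 0.638, 95% interval 0.485 to 0.841). Myc at this level rests on 23 and 30 UMIs. The HSP70 values rest on few cells: 1 vehicle cell held 34.9% of the Hspa1b UMIs of its class and library, and without the richest cell of each library the ratios were 0.670 for Hspa1a and 0.838 for Hspa1b. With classes taken from each cell's own markers both turned, to log2 ratios of 0.14 and 0.46. The class also differed in makeup: cluster 19 gave 28 of 551 and 42 of 292 cells. The 11 neutrophil markers summed to 238 and 1126 CPM (1 and 0 at 0) and the 6 erythroid markers to 91.5 and 20.9 CPM (1 and 2 at 0), and their part was not tested. In cluster 0 alone Egr1 stood at 15.6 and 38.1 CPM.

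Neutrophil-like cells (176 and 213 cells) had 2 of 27 measured genes at least 1.5 times higher, beside 8.47% of 3662 genes, and 4 lower, beside 4.1%. Klf2 was higher, at 302 and 184 CPM (ratio 1.65, 95% interval 1.41 to 1.92), and Atf3, at 27.9 and 17.7 CPM, had a ratio of 1.58 (95% interval 0.931 to 2.67), an interval that includes 1. Mature cluster 6 gave 117 of 176 and 109 of 213 cells of the class, so the class differed in makeup between the libraries, and Klf2 stood at 506 and 284 CPM in cluster 6 and 193 and 140.0 CPM in cluster 8. Lower were Egr1 at 4.37 and 48.6 CPM (ratio 0.0898, 95% interval 0.0284 to 0.218), Fosb at 7.86 and 26.9 CPM (ratio 0.292, 95% interval 0.126 to 0.604), Jun at 48.0 and 116 CPM (ratio 0.414, 95% interval 0.301 to 0.560) and Ddit4 at 13.1 and 20 CPM (ratio 0.654, 95% interval 0.332 to 1.23). A lone vehicle cell held 69.4% of the Egr1 UMIs, and the richest cells for Fosb and Jun held 42.6% and 37.4%. Without the richest cell of each library the ratios were 0.175 (0.0340 to 0.573), 0.449 (0.176 to 1.02) and 0.537 (0.373 to 0.759). Markers of other cells were also higher in the vehicle neutrophil-like cells, with summed levels of 5.24 and 93.8 CPM for the 9 Schwann markers (6 and 1 at 0), 21 and 139.5 CPM for the 7 fibroblast markers (4 and 1 at 0) and 33.2 and 1729 CPM for the 6 erythroid markers (2 and 1 at 0). Their part was not tested.

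In oligodendrocyte-like cells (394 and 209 cells) 1 of 31 measured genes was at least 1.5 times higher, beside 2.51% of 8246 genes, and 4 were lower, beside 1.88%. Klf6 was higher, at 61.4 and 40.5 CPM (ratio 1.52, 95% interval 1.23 to 1.87). Atf3 was at 21.8 and 55.1 CPM (ratio 0.396, 95% interval 0.309 to 0.505), Klf2 at 6.87 and 12.2 CPM (ratio 0.563, 95% interval 0.346 to 0.909), Zfp36 at 24.6 and 42.6 CPM (ratio 0.579, 95% interval 0.451 to 0.742) and Hspa1b at 18.8 and 28.9 CPM (ratio 0.650, 95% interval 0.484 to 0.874). The richest cell held 47.2% and 56.8% of the Atf3 UMIs, and without it the ratio was 0.484. Without the richest cells Klf2 (0.886) and Zfp36 (0.720) were no longer past the called fold. The abundant members of this class, Hsp90aa1 (0.983) and Sgk1 (1.05), were nearly equal in the libraries.

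Hspa1b was the gene with the most frequent difference, at least 1.5 times lower in the 5 classes where it was measured, Schwann-like, endothelial-like, microglia-like, monocyte/macrophage-like and oligodendrocyte-like cells, of which the monocyte/macrophage-like value turned under other settings. In mural-like cells, its highest class, the levels were 1469.8 CPM (95% interval 1386 to 1557) and 1527 CPM (1433 to 1627), with intervals that overlap. Hspa1a, its neighbour, had ratios, where measured, from 0.614 in monocyte/macrophage-like to 1.07 in oligodendrocyte-like cells. Errfi1 differed in direction by class, with 1.86 in endothelial-like, 1.64 in monocyte/macrophage-like and 0.585 in Schwann-like cells.

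Related genes outside the 36 were counted by the same rule from fixed lists. In Schwann-like cells 3 of 11 measured other immediate-early genes were at least 1.5 times lower and 1 was higher, beside 5.19% and 4.98% of all genes, with a median log2 ratio of -0.21. The lower ones were Cyr61, a matricellular gene, with a ratio of 0.513, Dusp6, an ERK phosphatase, with 0.627, and Ier5 with 0.639, and the higher one was Fosl2 with 1.80. Of 9 other chaperones 0 were lower and Hspa4 was higher, with a median of 0.04, and Hspa8 and Hsp90ab1 had ratios of 0.962 and 1.04. The 5 measured genes of the integrated stress and unfolded protein responses had 0 calls either way and a median of -0.07. Of the glucocorticoid-induced genes Tsc22d3, which encodes GILZ, was lower, with 416 and 761 CPM and a ratio of 0.547. In microglia-like cells 2 of 17 other immediate-early genes and 0 of 9 NF-kappaB feedback genes had a ratio above 1, beside 45.8% of all genes, with medians of -0.15 and -0.20, and 0 of either list were past the called fold. In neutrophil-like cells 11 of 12 other immediate-early genes were above 1 (median 0.23), beside 2206 of 3662 genes. Of 6 stress and unfolded protein response genes there, 3 were at least 1.5 times higher, beside 8.47%, and 0 lower. Of 5 glucocorticoid-induced genes in endothelial-like cells 2 were higher, beside 2.1%, and 0 lower. The other immediate-early medians were 0.09 in endothelial-like, -0.07 in monocyte/macrophage-like and -0.12 in oligodendrocyte-like cells.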

How the data were processed

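Single-cell libraries from injured cord of mice given an HDAC3 inhibitor or vehicle were compared, 1 per group. The authors deposited UMI counts per gene and barcode as 10x matrices. Per the file headers, these came from Cell Ranger 3.0.2, and the submitters' processing notes name Cell Ranger, Seurat and mm10. The handling of reads matching several genes was not given in the sources used here. The libraries held 38957752 and 29726813 UMIs.

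A barcode needed 500 genes, 1000 UMIs and no more than 15% of UMIs from mitochondria (448 and 353 failed). Scrublet then called 21 and 6 doublets, which were removed, few enough that doublets may remain. Cells were clustered from 2000 variable genes without the 36 members, 30 principal components, 20 neighbours and Leiden resolution 1 (python 3.11.15, scanpy 1.11.5, igraph 0.11.9, leidenalg 0.10.2, scikit-learn 1.9.0, scipy 1.17.1, numpy 2.4.6). A cluster was named X-like where its marker score reached 2.5 and led the next class by 0.5, with 3 markers at 20 CPM or more (pseudocount 5 CPM). No name was given to erythroid-mixed or cycling clusters, and T with NK cells form 1 class. The naming thresholds were set with marker scores known, and the members and lists with earlier results of these data known.

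UMIs were summed per class and library. Levels have exact Poisson intervals, shares have Clopper-Pearson intervals and ratios have exact conditional binomial ones (95%, counting error only). Levels needed 20 cells per library, ratios 100 cells per library and 50 UMIs over both. All 36 members are accounted for. Members at a fold of 1.5 or more were named, first 6 per class and direction in order of the ratio. The ratio calculation was tested on simulated data. Another 9 settings of filter, clustering, depth, weighting and class were tried, and 1 more without the richest cell of each library, chosen after seeing the data. Promoter sequences came from RefSeq (GRCm38.p6), gene positions and transcripts from the GENCODE M21 annotation.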

Additional observations from a re-analysis of the deposited data

Results flagged for a closer look

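For 4 genes the ratio of the HDAC3 inhibitor library over the vehicle library was past a fold of 1.5 in opposite directions in different classes. The difference between classes was not tested, since each treatment had 1 library. Errfi1 had a ratio of 1.86 in endothelial-like and 1.64 in monocyte/macrophage-like cells, and 0.585 in Schwann-like cells. Egr3 had 1.52 in endothelial-like cells, 0.548 in Schwann-like cells and 0.593 in microglia-like cells. Klf2 had 1.65 in neutrophil-like cells, 0.595 in Schwann-like cells and 0.563 in oligodendrocyte-like cells, the last resting in part on 1 vehicle cell with 43.9% of the UMIs. Atf3 had 1.53 in endothelial-like and 0.396 in oligodendrocyte-like cells, where the richest cell held 47.2% and 56.8% of its UMIs.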

How the results depend on the processing

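The number of class-bound genes was 2 and became 1 with classes taken from each cell's own markers and 4 with the largest cluster of each class alone. Egr2 was class-bound under 9 of 9 other settings and Gadd45a under 8. The count of shared genes was 0 throughout. Pairs at least 1.5 times higher numbered 8, and 4 under the stricter cell filter, 5 with cells thinned to 2000 UMIs and 14 without the 5% of cells richest in these genes. Pairs at least 1.5 times lower numbered 30, and 16 with classes from own markers. The numbers of measured pairs and the shares over all genes under these settings are not given, so these counts cannot be compared as shares. The cause of the changes was not tested. The Schwann-like median log2 ratio ranged from -0.51 to -0.41. In monocyte/macrophage-like cells the log2 ratio of Hspa1a turned to 0.14 with own markers and 0.089 with thinned cells, and that of Hspa1b to 0.46 with own markers and 0.0080 with each cell weighted alike. No paired analysis was possible because each treatment had 1 library and the result comes from no test. With 1 library each, the treatment cannot be told apart from the mice, the dissection and the library, and rare classes hold few UMIs of the low genes.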

Other observations

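T/NK-like and astrocyte-like cells had too few vehicle cells (14 and 15) for the account of classes. In T/NK-like cells the 36 genes took 0.720% and 1.20% of UMIs, with Junb at 1778 and 1918 CPM. In astrocyte-like cells they took 0.318% and 0.478%, with Hspb1, the small heat shock protein, at 731 and 1414 CPM and Gadd45g at 171 and 783 CPM, each from 29 and 15 cells.

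Across cells of a class, thinned to 2000 UMIs, some of the genes varied together. All points come from the same libraries and equal depth, so the correlations are descriptions. Pairs were limited to genes detected often enough in both libraries, and no share over all gene pairs was computed. In Schwann-like cells (126 and 189 cells) Pearson's r of Fos and Egr1 was 0.74 and 0.70, and that of Fos and Junb 0.69 and 0.72. These include the highest values of the class, where the median over pairs was 0.17 and 0.16. In endothelial-like cells (345 and 257 cells) Fos and Egr1 had 0.71 and 0.65, the highest of the class, where the median was 0.26 and 0.24. There 113 of 300 gene pairs had an r of at least 0.3 in both libraries. In neutrophil-like cells (154 and 208 cells) Dusp1 and Cebpb had 0.57 and 0.58, where the median was 0.16 and 0.16. In monocyte/macrophage-like cells 0 of 120 pairs reached 0.3 in both libraries.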
